A study of Homo sapiens with 7 samples.

Results

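Integrins are the receptors by which cells hold on to the matrix around them, and laminins are among the matrix proteins they hold. The genes described here are the 38 of 23262 in the deposited table that encode an integrin alpha or beta subunit (26 genes) or a laminin chain (12 genes), taken by gene symbol and read in all 7 libraries. The platelet subunit ITGA2B was counted as an integrin, and genes with similar symbols that encode no subunit or chain (ITGB3BP, ITGBL1, ITGB1BP1, ITGB1BP2, ITGB1BP3 and LAMB2P1) were not. The choice used no expression value.

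The cells are of the human embryonic stem cell (hESC) line H3, made to differentiate along the cardiac lineage. Green fluorescence (eGFP) reports NKX2-5, which encodes a cardiac transcription factor, and red (mCherry) reports alpha-MHC, the myosin heavy chain encoded by MYH6. The groups are undifferentiated hESC (day 0), and CD13+/ROR2+ and CD13-/ROR2- cells sorted on day 3. They are followed by CD13+/ROR2+/NKX2-5+ and CD13+/ROR2+/NKX2-5- cells on day 7, and CD13+/ROR2+/NKX2-5+ cells labelled positive or negative for alpha-MHC on day 14. The last 4 are called day 7 NKX2-5+ and NKX2-5-, and day 14 aMHC+ and aMHC-. Every group is 1 library of the same line. No group therefore has a replicate spread, no statistical test is possible, and each difference below is one between libraries. In sorted bulk samples, fewer cells with a transcript and less of it per cell cannot be told apart.

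An integrin is a pair of 1 alpha and 1 beta subunit, and the pair decides the ligand. With ITGB1, the subunits ITGA3, ITGA6 and ITGA7 bind laminins, ITGA5 binds fibronectin, ITGA1 binds collagens, and ITGA9 binds tenascin C, VCAM1 and others. ITGAV pairs with several beta subunits (ITGB1, ITGB3, ITGB5, ITGB6, ITGB8) and recognises fibronectin, vitronectin and latent TGF-beta. A laminin is a trimer of 1 alpha, 1 beta and 1 gamma chain, secreted into basement membranes. Stem cells in culture are commonly grown on laminin, fibronectin or vitronectin, and cells of the primitive streak leave an epithelium with a laminin basement membrane.

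Values are FPKM (fragments per kilobase of transcript, scaled to the mapped total), as the authors deposited them. Because FPKM is per length, levels of different genes can be set side by side. A gene is called higher or lower where the log2 ratio of (FPKM + 1) between 2 libraries is at least 2 in size (4-fold) and the higher library has at least 5 FPKM. Each fold is a quotient of FPKM values, without a pseudocount. The depth of each library is unknown; the labels give only a minimum read number common to all. Steps between low values put day 7 NKX2-5+ at 0.603 times the depth of hESC and 4 of the other sorted libraries at 1.31 to 3.10 times, with no usable estimate for day 7 NKX2-5-. Day 7 NKX2-5+ also stood apart in scale, with 9699 genes of at least 1 FPKM against 10656 to 10830 in the others. Median-ratio scaling, which levels the typical gene, divides each library by its own factor. The log2 quotient of the factors was -0.43 for day 7 NKX2-5+ over day 7 NKX2-5- and -0.69 for it over day 3 CD13+/ROR2+. For day 14 aMHC+ over day 7 NKX2-5+ it was 0.61. Because the factors are divided out, scaling raises day 7 NKX2-5+ relative to those libraries. The quotient was -0.26 for day 7 NKX2-5- over day 3 CD13+/ROR2+, -0.21 for day 14 aMHC+ over aMHC-, and under 0.1 in size elsewhere. Scaled ratios are given beside the plain ones where this matters.

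The labels were checked against marker genes. Day 3 CD13+/ROR2+, labelled a mesoderm progenitor, had a summed level of 743 FPKM over 6 mesoderm markers against 116 in CD13-/ROR2- and 2.16 in hESC. Day 3 CD13-/ROR2- is labelled an endoderm progenitor, but its 4 definitive endoderm markers summed to 3.88 FPKM against 39.3 in CD13+/ROR2+, and its 5 pluripotency markers to 545 FPKM against 541 in hESC. Within the latter sums, POU5F1 was at 64.8 against 154 FPKM and NANOG at 27.5 against 36.5. SOX2 was at 68.0 against 26.3, DPPA4 at 272 against 229 and LIN28A at 113 against 95.2. Day 3 CD13-/ROR2- is therefore named by its gate. The summed FPKM of 6 cardiomyocyte markers was 1612 and 238 in day 7 NKX2-5+ and NKX2-5-, and 1635 and 780 in day 14 aMHC+ and aMHC-. These names are gates too. In day 14 aMHC+ and aMHC-, MYH6 was at 342 and 136 FPKM and NKX2-5 at 63.2 and 85.5. NKX2-5 was at 70.2 and 1.18 FPKM in day 7 NKX2-5+ and NKX2-5-. ANPEP, which encodes CD13, was at 12.0 FPKM in day 3 CD13+/ROR2+, 0.145 and 1.72 on day 7, and 0.0152 and 0.0731 on day 14. ROR2 was at 20.6 FPKM in day 3 CD13+/ROR2+ and 3.39 to 4.16 on day 7 and day 14.

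Of the 38 genes, 15 reached 5 FPKM in at least 1 library, 8 integrins and 7 laminins, and none of these was listed at 0 anywhere. Another 15 stayed below 1 FPKM in all libraries. The number at 5 FPKM or more was 5 in hESC, 7 and 8 in day 3 CD13+/ROR2+ and CD13-/ROR2-, 7 and 12 in day 7 NKX2-5+ and NKX2-5-, and 10 and 11 in day 14 aMHC+ and aMHC-. Neither laminin nor integrin genes as a list had a median log2 ratio of 1 or more in size in any of the 8 comparisons. Many members are near 0. Over the 23 members with a mean of at least 0.5 FPKM the median was also under 1 in size throughout, and widest in the day 7 pair (-0.995). The description therefore goes by member.

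ITGB1 was the leading beta subunit in all 7 libraries. It encodes the partner of most matrix-binding alpha subunits. Its level was 37.4 FPKM in hESC, 23.8 and 17.9 in day 3 CD13+/ROR2+ and CD13-/ROR2-, 21.5 and 36.3 in day 7 NKX2-5+ and NKX2-5-, and 37.3 and 48.7 in day 14 aMHC+ and aMHC-. The highest and lowest libraries are day 14 aMHC- and day 3 CD13-/ROR2-, and ITGB1 passed the size rule in none of the 8 comparisons. Its share of the summed FPKM of all beta subunits was between 53.6% and 84.6%.

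ITGB5, a partner of ITGAV in vitronectin receptors, was next in every library. It stood at 11.4 FPKM in hESC, 16.4 and 14.1 in day 3 CD13+/ROR2+ and CD13-/ROR2-, 2.80 and 9.08 in day 7 NKX2-5+ and NKX2-5-, and 5.66 and 7.49 in day 14 aMHC+ and aMHC-. The day 0 and day 3 libraries are thus the high ones, and day 7 NKX2-5+ is the lowest. On day 3, ITGB5 made up 40.3% and 42.3% of beta subunit FPKM, against 10.4% in day 7 NKX2-5+. ITGB3, another vitronectin receptor subunit, had 0.101 to 0.171 FPKM up to day 3. Its level was 2.41 and 1.98 in day 7 NKX2-5+ and NKX2-5-, and 1.40 and 0.899 in day 14 aMHC+ and aMHC-. It stayed below 5 FPKM throughout.

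**Figure D1:**
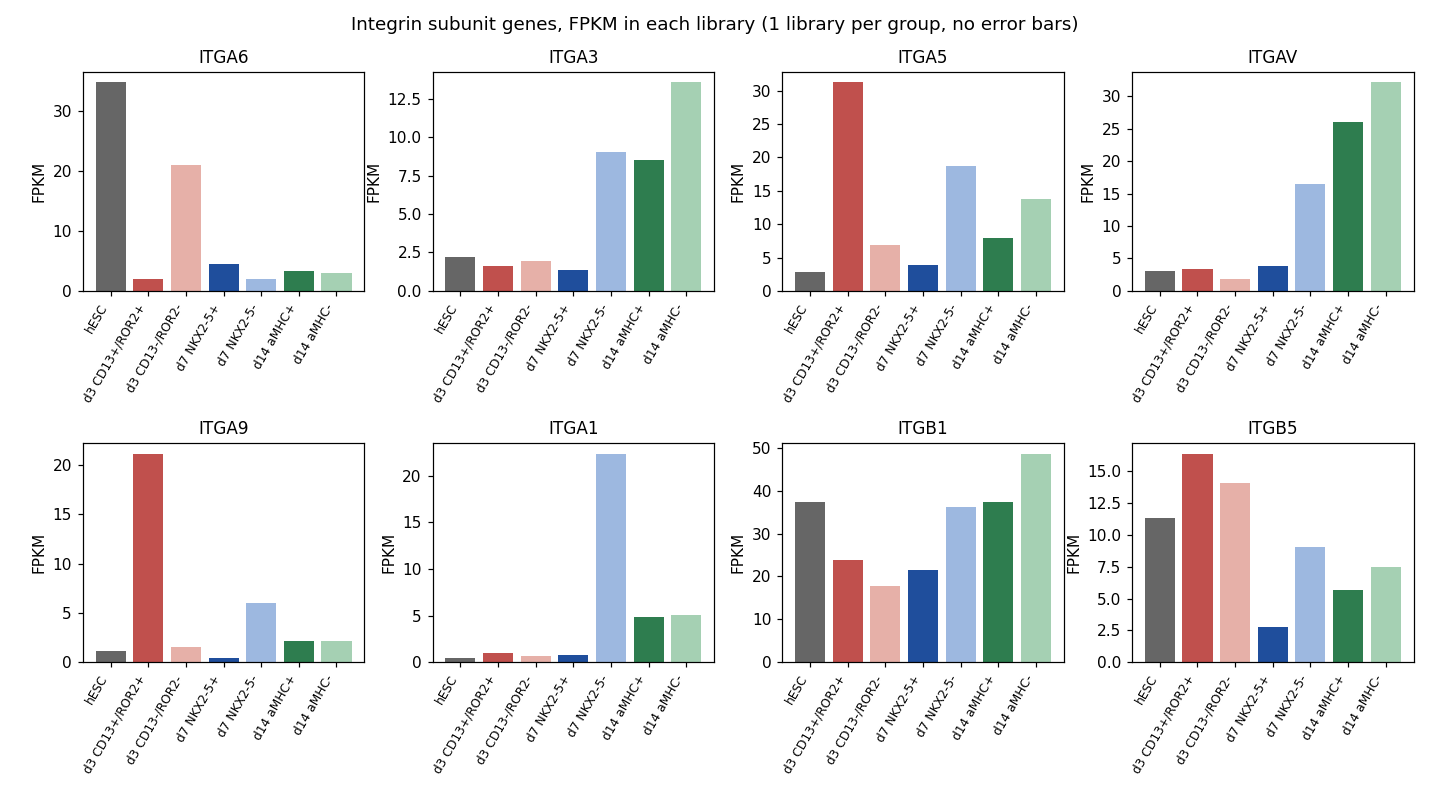
Level in FPKM (vertical axis, from 0, a different range per panel) of the 8 integrin genes that reached 5 FPKM, one bar per library, with 1 library per group and no error bars. ITGA6 is high in hESC (34.7) and day 3 CD13-/ROR2- (20.9), ITGA5 and ITGA9 are highest in day 3 CD13+/ROR2+ (31.3 and 21.2), ITGA1 in day 7 NKX2-5- (22.4), and ITGAV in the day 14 libraries (26.0 and 32.2).

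The alpha subunits, unlike ITGB1, stood in a different order from library to library. ITGA6 led in hESC with 71.0% of alpha subunit FPKM, and in day 3 CD13-/ROR2- with 57.2%. ITGA5 led in day 3 CD13+/ROR2+ with 48.2%, followed by ITGA9 with 32.6%. In day 7 NKX2-5+, 3 subunits were near one another, ITGA6 with 26.6%, ITGA5 with 23.4% and ITGAV with 22.5%. ITGA1 led in day 7 NKX2-5- with 26.7%, and ITGAV led in both day 14 libraries with 43.4% and 42.0%. These shares are taken within a library, so they do not move with library scaling.

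**Figure D2:**
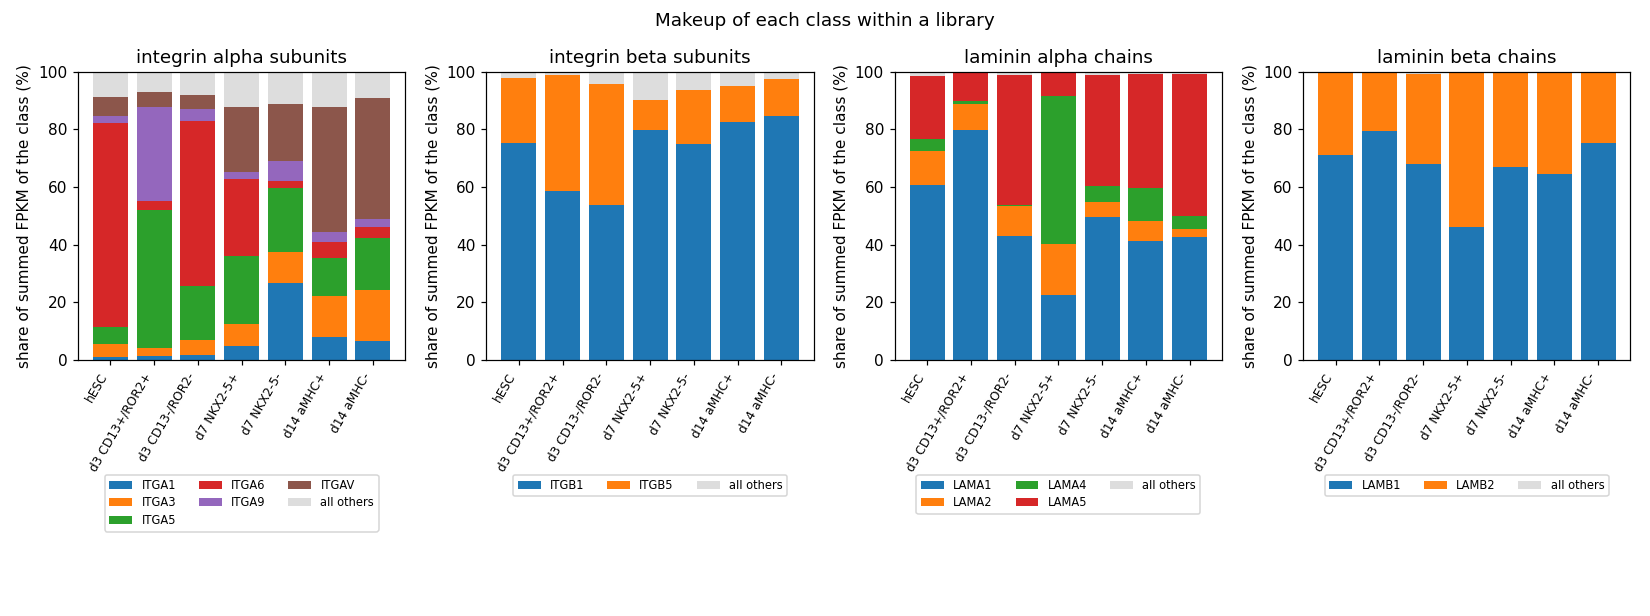
Share of each gene in the summed FPKM of its class (vertical axis, percent) in each library, for integrin alpha and beta subunits and laminin alpha and beta chains, with genes that never reach 10% drawn together in grey. The leading alpha subunit differs between libraries, while ITGB1 leads the beta subunits in all 7, and LAMA4 takes 51.4% of laminin alpha FPKM in day 7 NKX2-5+.

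ITGA6, the laminin receptor subunit of undifferentiated hESC, was far lower in the sorted mesoderm. It was at 34.7 FPKM in hESC, 20.9 in day 3 CD13-/ROR2-, 2.02 in day 3 CD13+/ROR2+, 4.48 and 2.05 in day 7 NKX2-5+ and NKX2-5-, and 3.31 and 3.03 in day 14 aMHC+ and aMHC-. The first 2 libraries stand above 20 FPKM and the other 5 below 5. On day 3 the level in CD13+/ROR2+ was 10.4-fold below that in CD13-/ROR2- and 17.2-fold below hESC. The beta partner by which ITGA6 forms hemidesmosomes, ITGB4, was at most 0.70 FPKM and was listed at 0 in both day 7 libraries.

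ITGA3, which with ITGB1 binds laminins that contain LAMA5 or LAMA3, was low until day 3 and higher later, except in day 7 NKX2-5+. Its levels were 2.20 FPKM in hESC, 1.62 and 1.92 in day 3 CD13+/ROR2+ and CD13-/ROR2-, 1.33 and 9.05 in day 7 NKX2-5+ and NKX2-5-, and 8.48 and 13.6 in day 14 aMHC+ and aMHC-. The 4 libraries of hESC, day 3 and day 7 NKX2-5+ lie between 1.33 and 2.20 FPKM, and the remaining 3 above 8. ITGA7, the laminin receptor subunit of striated muscle, did not reach 5 FPKM. It was between 0.270 and 1.04 FPKM up to day 7 and at 3.16 and 1.75 in day 14 aMHC+ and aMHC-.

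At the transcript level, ITGA6 exceeded ITGA3 in 4 libraries. The excess was large in hESC and day 3 CD13-/ROR2-, and smaller in day 3 CD13+/ROR2+ and day 7 NKX2-5+. These FPKM values do not measure receptor protein. The quotient of ITGA3 over ITGA6 was 0.0635 in hESC, 0.0919 in day 3 CD13-/ROR2-, 0.802 in day 3 CD13+/ROR2+ and 0.296 in day 7 NKX2-5+. It was 4.42 in day 7 NKX2-5-, 2.56 in day 14 aMHC+ and 4.47 in aMHC-.

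ITGA5, the alpha subunit of the classical fibronectin receptor, was highest in day 3 CD13+/ROR2+. It had 2.88 FPKM in hESC, 31.3 and 6.89 in day 3 CD13+/ROR2+ and CD13-/ROR2-, 3.94 and 18.6 in day 7 NKX2-5+ and NKX2-5-, and 7.88 and 13.7 in day 14 aMHC+ and aMHC-. The NKX2-5- fraction of day 7 is thus the next highest, while NKX2-5+ is the next above hESC, the lowest. After scaling, NKX2-5+ and hESC were at 5.74 and 2.69. The level in day 3 CD13+/ROR2+ was 10.9-fold that in hESC and 4.54-fold that in CD13-/ROR2-, the latter just past the size rule (log2 ratio 2.03) and short of it after scaling (1.95).

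The ligand of this receptor was not ordered like ITGA5. Fibronectin (FN1) stood at 14.6 FPKM in hESC, 58.1 and 50.4 in day 3 CD13+/ROR2+ and CD13-/ROR2-, 60.2 and 408 in day 7 NKX2-5+ and NKX2-5-, and 338 and 716 in day 14 aMHC+ and aMHC-. The day 3 fractions had similar FN1 but ITGA5 at 31.3 and 6.89 FPKM. FN1 was highest in day 7 NKX2-5- and both day 14 libraries, where ITGA5 was at 18.6, 7.88 and 13.7 FPKM, below its day 3 CD13+/ROR2+ level. Day 7 NKX2-5- stood next below the highest library for both genes.

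ITGA9, a receptor subunit for tenascin C, VCAM1 and osteopontin, had the largest fold in the day 3 pair among members that reached 5 FPKM. It was at 1.14 FPKM in hESC, 21.2 and 1.5 in day 3 CD13+/ROR2+ and CD13-/ROR2-, 0.433 and 5.98 in day 7 NKX2-5+ and NKX2-5-, and 2.19 and 2.10 in day 14 aMHC+ and aMHC-. A single library is above 6 FPKM. Its related subunit ITGA4, also a VCAM1 and fibronectin receptor, was highest in the same library, at 2.5 FPKM against at most 1.06 elsewhere. Of the ligands, tenascin C (TNC) was at 5.10 FPKM in day 3 CD13+/ROR2+ and 1.21 in CD13-/ROR2-, and VCAM1 at 0.0471 and listed at 0. Osteopontin (SPP1) stood in the opposite order to TNC, at 0.409 FPKM in day 3 CD13+/ROR2+ and 4.78 in CD13-/ROR2-. VCAM1 reached 11.8 FPKM in day 7 NKX2-5+, where ITGA9 and ITGA4 had 0.433 and 0.0352.

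ITGAV, the alpha subunit of the vitronectin receptors, was low through day 3 and the most abundant alpha subunit on day 14. It had 3.14 FPKM in hESC, 3.40 and 1.76 in day 3 CD13+/ROR2+ and CD13-/ROR2-, 3.79 and 16.5 in day 7 NKX2-5+ and NKX2-5-, and 26.0 and 32.2 in day 14 aMHC+ and aMHC-. The first 4 of these values lie within 1.76 to 3.79 FPKM, and the last 3 are all above 16. Vitronectin (VTN) itself was at most 0.110 FPKM up to day 3, at 5.40 and 23.0 in day 7 NKX2-5+ and NKX2-5-, and at 0.813 and 0.629 on day 14. Its level on day 14 was therefore low where ITGAV was highest, while FN1, which ITGAV also recognises, was high.

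ITGA1, a collagen receptor subunit, reached 5 FPKM in 2 libraries. Its values were 0.469 FPKM in hESC, 0.967 and 0.622 in day 3 CD13+/ROR2+ and CD13-/ROR2-, 0.802 and 22.4 in day 7 NKX2-5+ and NKX2-5-, and 4.81 and 5.10 in day 14 aMHC+ and aMHC-. Day 7 NKX2-5- stands alone above the rest. The collagen receptor subunit ITGA11 was also highest there, at 2.81 FPKM, and so was ITGA8, a nephronectin receptor subunit, at 4.2 FPKM. ITGA2 and ITGA10 stayed below 1 FPKM in all libraries.

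Of the 7 subunits of leukocyte integrins, ITGAE alone passed 1 FPKM, with a highest level of 1.95 in day 14 aMHC-. ITGAL, ITGAX and ITGAD were listed at 0 in 5 libraries each, and ITGB2, the beta subunit common to them, was at most 0.170 FPKM. PTPRC, the pan-leukocyte marker CD45, was at 0.0120 FPKM in hESC and listed at 0 in the 6 sorted libraries. ITGA2B, ITGB6 and ITGB8 were below 1 FPKM everywhere.

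LAMC1 led the gamma chains and was the most abundant laminin gene in 5 of the 7 libraries. It was at 15.1 FPKM in hESC, 10.6 and 24.6 in day 3 CD13+/ROR2+ and CD13-/ROR2-, 18.3 and 52.0 in day 7 NKX2-5+ and NKX2-5-, and 30.0 and 48.9 in day 14 aMHC+ and aMHC-. The lowest level is that of the day 3 mesoderm, which on the same day is 2.31-fold below CD13-/ROR2-. LAMC3, a gamma chain of less common trimers, reached 4.15 and 3.72 FPKM in the day 3 fractions and 1.5 or less elsewhere. It made up 27.6% of gamma chain FPKM in day 3 CD13+/ROR2+.

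LAMB1 and LAMB2 are the beta chains of most basement membranes. LAMB1 was at 5.91 FPKM in hESC, 13.8 and 9.94 in day 3 CD13+/ROR2+ and CD13-/ROR2-, 12.5 and 30.4 in day 7 NKX2-5+ and NKX2-5-, and 33.6 and 45.6 in day 14 aMHC+ and aMHC-. Every sorted library lies above hESC. LAMB2, the beta chain found in muscle and at neuromuscular junctions, was at 2.41 FPKM in hESC, 3.50 and 4.59 in day 3 CD13+/ROR2+ and CD13-/ROR2-, 14.5 and 14.7 in day 7 NKX2-5+ and NKX2-5-, and 18.1 and 14.9 in day 14 aMHC+ and aMHC-. All 4 day 7 and day 14 values are above 14 FPKM and those before are below 5.

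LAMB2 exceeded LAMB1 in day 7 NKX2-5+ (53.7% of beta chain FPKM) and in no other library, where LAMB1 made up 64.7% to 79.6%. The related pseudogene LAMB2P1, at most 0.766 FPKM, could share reads with LAMB2.

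**Figure D3:**
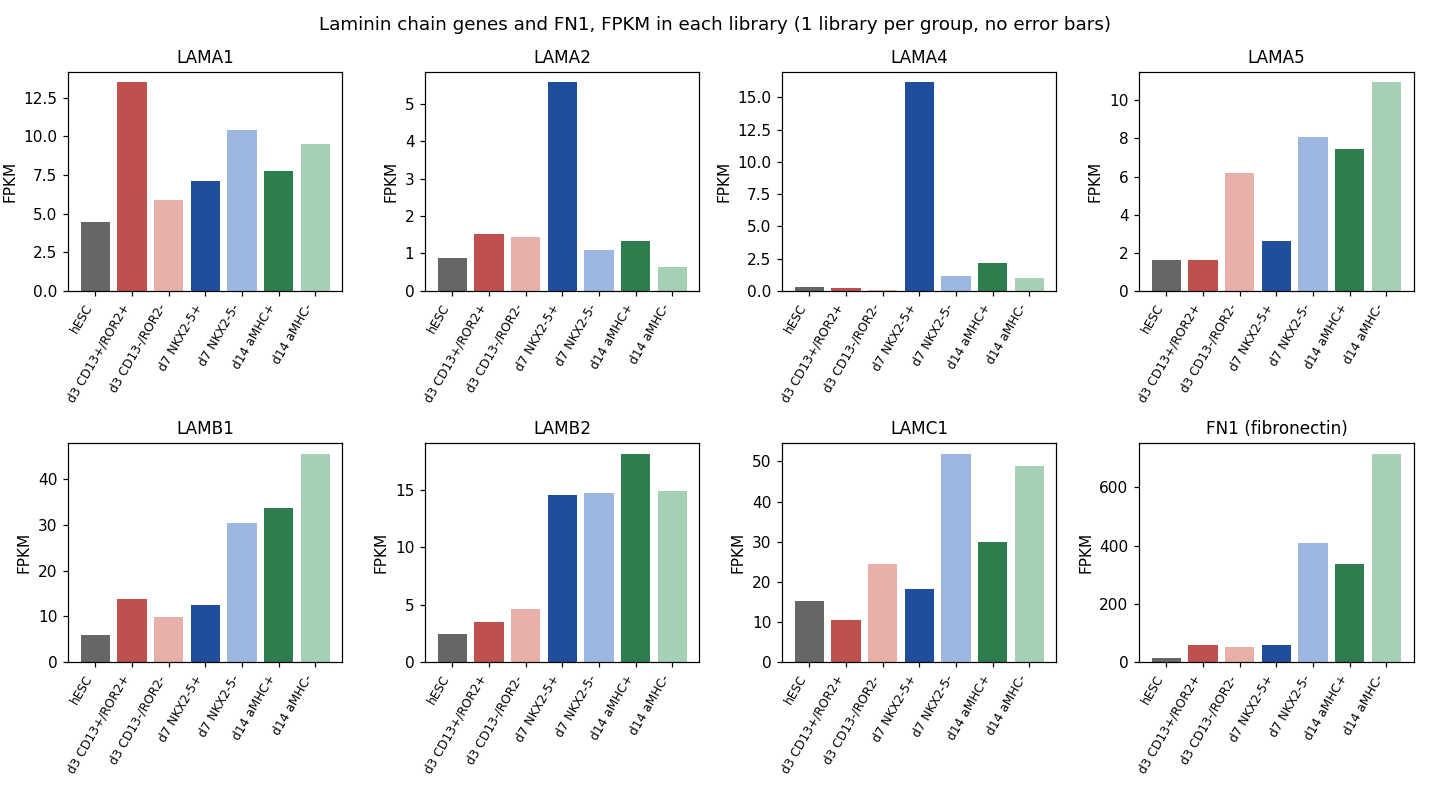
Level in FPKM (vertical axis, from 0, a different range per panel) of the 7 laminin genes that reached 5 FPKM and of FN1, one bar per library, with 1 library per group and no error bars. LAMA4 and LAMA2 are highest in day 7 NKX2-5+ (16.2 and 5.58), LAMA1 in day 3 CD13+/ROR2+ (13.5), and LAMA5, LAMB1 and FN1 in day 14 aMHC- (10.9, 45.6 and 716).

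Since LAMB1 and LAMC1 form the common core of many trimers and both were high in day 7 NKX2-5- and on day 14, the 250 bases before each start site are shown. They come from RefSeq on GRCh38.p14, whereas the authors used hg19. Capitals mark the GC box, GGGCGG on either strand.
LAMB1, chr7:108003162-108003411, minus strand: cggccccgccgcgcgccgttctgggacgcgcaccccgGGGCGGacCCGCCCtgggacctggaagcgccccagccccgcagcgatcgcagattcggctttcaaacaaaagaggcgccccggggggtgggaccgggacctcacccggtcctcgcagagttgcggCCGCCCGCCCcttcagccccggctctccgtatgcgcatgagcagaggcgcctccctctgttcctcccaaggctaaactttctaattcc
LAMC1, chr1:183023170-183023419, plus strand: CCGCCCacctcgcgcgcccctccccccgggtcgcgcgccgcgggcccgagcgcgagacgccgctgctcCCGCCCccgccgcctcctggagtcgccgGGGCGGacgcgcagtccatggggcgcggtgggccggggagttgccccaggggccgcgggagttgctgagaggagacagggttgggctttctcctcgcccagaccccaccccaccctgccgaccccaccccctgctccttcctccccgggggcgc
The LAMB1 window holds 4 GC boxes, 2 of them overlapping, and the LAMC1 window 3. Of 35116 windows of this length in the same table, 42.6% hold at least 1. Neither window holds a CCAAT box (CCAAT, in 32.0% of windows) or a TATA box (TATAAA, in 10.7%), searched on both strands. The windows are 70.4% and 79.6% G or C, against a median of 58.0% over the table. A match describes these letters and is not evidence of binding. RefSeq windows were found for 26 of the 38 genes.

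The alpha chains, which carry the main integrin binding region of a laminin, differed in order between libraries. LAMA1, the embryonic alpha chain, was at 4.46 FPKM in hESC, 13.5 and 5.91 in day 3 CD13+/ROR2+ and CD13-/ROR2-, 7.09 and 10.4 in day 7 NKX2-5+ and NKX2-5-, and 7.74 and 9.50 in day 14 aMHC+ and aMHC-. The span is narrow, 3.03-fold from lowest to highest. LAMA5, the alpha chain of many adult basement membranes, was at 1.61 FPKM in hESC, 1.63 and 6.20 in day 3 CD13+/ROR2+ and CD13-/ROR2-, 2.60 and 8.09 in day 7 NKX2-5+ and NKX2-5-, and 7.43 and 10.9 in day 14 aMHC+ and aMHC-. On day 3 these chains stood in opposite order, with LAMA1 the higher in CD13+/ROR2+ and LAMA5 the higher in CD13-/ROR2-, and neither difference passed the size rule. The quotient of LAMA1 over LAMA5 was 8.27 in CD13+/ROR2+ and 0.954 in CD13-/ROR2-.

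LAMA4, an alpha chain of heart and blood vessel basement membranes, was abundant in day 7 NKX2-5+ and in no other library. It was at 0.294 FPKM in hESC, 0.188 and 0.0720 in day 3 CD13+/ROR2+ and CD13-/ROR2-, 16.2 and 1.18 in day 7 NKX2-5+ and NKX2-5-, and 2.14 and 0.986 in day 14 aMHC+ and aMHC-. The next highest library, day 14 aMHC+, has 7.55-fold less. LAMA2, the alpha chain of muscle laminin, was also highest in day 7 NKX2-5+. It had 0.878 FPKM in hESC, 1.51 and 1.45 in day 3 CD13+/ROR2+ and CD13-/ROR2-, 5.58 and 1.09 in day 7 NKX2-5+ and NKX2-5-, and 1.33 and 0.636 in day 14 aMHC+ and aMHC-. All libraries but day 7 NKX2-5+ lie between 0.636 and 1.51 FPKM.

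LAMA4 and LAMA2 together with LAMA1 gave day 7 NKX2-5+ an alpha chain makeup of its own. LAMA4 made up 51.4% of alpha chain FPKM, LAMA1 22.6%, LAMA2 17.7% and LAMA5 8.26%. Elsewhere LAMA4 made up 0.522% to 11.4%. LAMA1 led in hESC (60.7%), day 3 CD13+/ROR2+ (80.0%), day 7 NKX2-5- (49.6%) and day 14 aMHC+ (41.2%). LAMA5 led in day 3 CD13-/ROR2- (44.9%, with LAMA1 at 42.9%) and day 14 aMHC- (49.2%), and LAMA1 and LAMA5 were near each other in day 14 aMHC+ (39.6% for LAMA5).

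LAMA3 and LAMB3, an alpha and a beta chain of epithelial basement membranes, were low throughout. LAMA3 was at most 0.224 FPKM and LAMB3 at most 0.202. LAMB4 was listed at 0 in 4 libraries and at most 0.111 FPKM in the others.

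On day 3 the sort was on CD13 and ROR2, and the comparison is between its fractions. In CD13+/ROR2+ over CD13-/ROR2-, the fibronectin and tenascin receptor subunits were higher and the laminin receptor subunit lower. Of the 38 genes, 2 were higher (ITGA5 and ITGA9) and 1 lower (ITGA6). After scaling 1 was higher (ITGA9) and 1 lower. Over all 13137 genes with a mean of at least 0.5 FPKM, 1.65% were higher and 1.13% lower. ITGA9 was 14.2-fold higher (log2 ratio 3.15) and ITGA6 10.4-fold lower (log2 ratio -2.86). Below the size rule were LAMA5 (log2 ratio -1.45), LAMC1 (-1.14) and LAMA1 (1.07). Epithelial markers, 7 genes, summed to 131 FPKM in the CD13+/ROR2+ fraction and 265 in the other. Of the 7, 0 were higher and 4 lower (CDH1, GRHL2, ESRP1 and EPCAM), with the same counts after scaling. CDH1 was at 3.15 against 45.0 FPKM, while KRT8 (36.1 against 36.5) and KRT18 (46.7 against 46.1) were level. The part of the epithelial markers in the integrin difference was not tested.

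Against hESC the same 3 subunits passed in day 3 CD13+/ROR2+, with ITGA5 and ITGA9 higher (2 of 38, 2.01% of all genes) and ITGA6 lower (1 of 38, 1.13% of all genes). ITGA9 was 18.5-fold higher. In day 3 CD13-/ROR2- over hESC, no member passed in either direction (0 of 38, against 0.632% of all genes higher and 0.51% lower). The largest log2 ratio there was that of LAMA5, at 1.46, and ITGB1 had -1.02. These comparisons share the hESC library, and both day 3 ones share a library with the comparison before.

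The day 7 comparison sets cells with the NKX2-5 reporter against those without. Here the NKX2-5+ library had the higher LAMA4, and lower ITGA1, ITGA3 and ITGA9. Of the 38 genes, 1 was higher (0.769% of all genes) and 3 lower (2.06% of all genes), and after scaling 2 were higher (LAMA4 and LAMA2) and 2 lower (ITGA1 and ITGA9). LAMA4 was 13.7-fold higher (log2 ratio 2.98, scaled 3.43). ITGA1 was 27.9-fold lower (-3.70, scaled -3.54), ITGA9 13.8-fold lower (-2.29, scaled -2.19) and ITGA3 6.82-fold lower (-2.11, scaled -1.88). LAMA2 was 5.13-fold higher (1.66, scaled 2.07).

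ITGA5 and ITGAV were 4.73-fold and 4.34-fold lower in NKX2-5+ but short of the rule on the FPKM + 1 scale (-1.99 and -1.87, scaled -1.65 and -1.53). LAMA5, LAMB1 and LAMC1 had log2 ratios of -1.34, -1.21 and -1.46 (scaled -1.02, -0.81 and -1.05). ITGA6 was 2.19-fold higher in NKX2-5+ (0.85, scaled 1.23), and LAMB2 was level (-0.02, scaled 0.39).

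Other cell types differ between these fractions by their markers. Stromal markers, 7 genes, summed to 44.1 FPKM in NKX2-5+ and 694 in NKX2-5-, and liver and visceral endoderm markers, 6 genes, to 24.3 and 177. Endothelial markers, 8 genes, summed to 10.4 and 34.4 FPKM, with CDH5 at 1.01 and 6.17. Smooth muscle markers, 6 genes, summed to 499 and 602 FPKM, most of it ACTA2 (456 and 421). Of the 6, 0 were higher and 2 lower in NKX2-5+, TAGLN (21.1 against 144 FPKM) and ACTG2 (0.153 against 5.90). None of the stromal, endothelial or liver markers was listed at 0 in either library, and their part in the member differences was not tested.

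**Figure D4:**
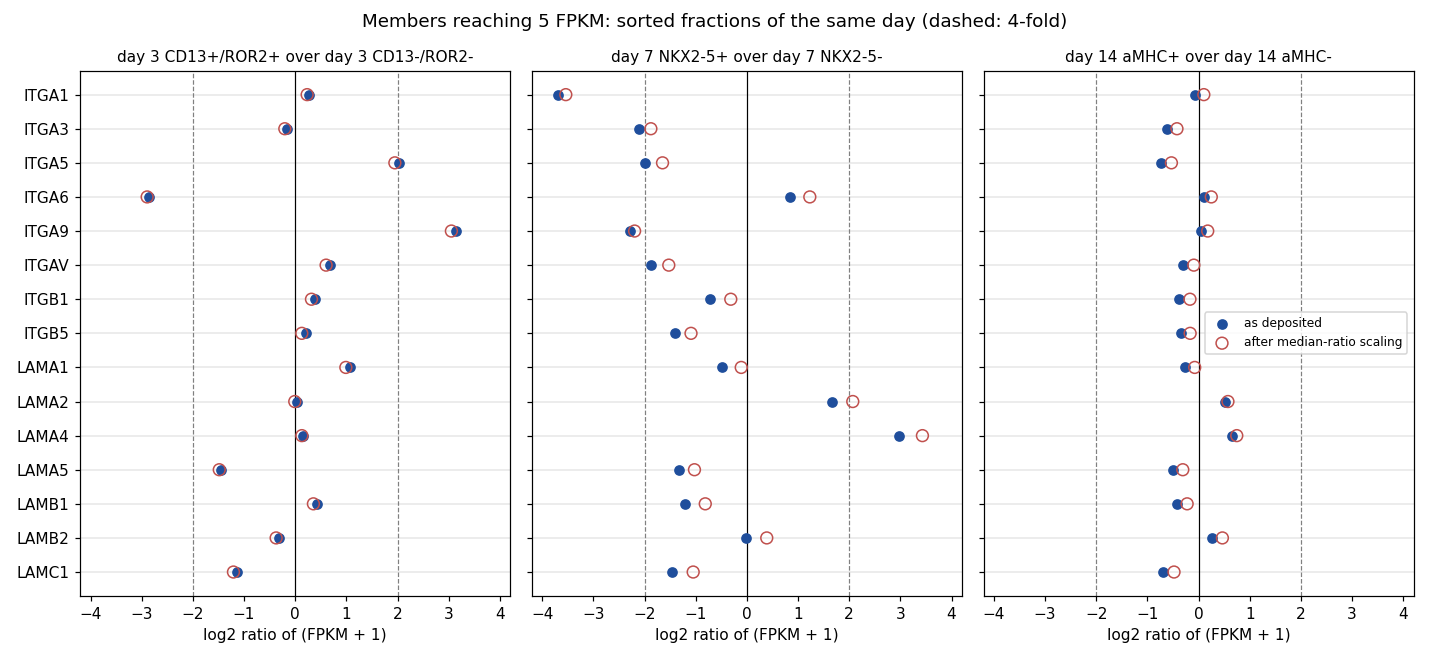
Log2 ratio of (FPKM + 1) between the 2 fractions of each day (horizontal axis) for the 15 members that reached 5 FPKM, filled points as deposited and open circles after median-ratio scaling, with dashed lines at a 4-fold difference. ITGA9, ITGA5 and ITGA6 lie outside the lines or at them on day 3. On day 7 LAMA4, ITGA1, ITGA9 and ITGA3 do so, as do the filled point of ITGA5 and the open circle of LAMA2. On day 14 all points lie between -0.73 and 0.75.

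From day 3 CD13+/ROR2+ to day 7 NKX2-5+, LAMA4 was higher (1 of 38, 1.88% of all genes) and ITGA5, ITGA9 and ITGB5 were lower (3 of 38, 3.9% of all genes). After scaling 2 were higher (LAMA4 and LAMB2) and 2 lower (ITGA5 and ITGA9). LAMA4 was 86.2-fold higher, from a low level of 0.188 FPKM whose read number is unknown. ITGA9 was 48.9-fold lower and ITGA5 7.93-fold lower. LAMB2 was 4.15-fold higher (log2 ratio 1.79, scaled 2.41), and ITGB5 5.87-fold lower (-2.20, scaled -1.64).

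From day 3 CD13+/ROR2+ to day 7 NKX2-5-, ITGA1 and LAMC1 were higher (2 of 38, 2.42% of all genes) and 0 of 38 lower (1.67% of all genes). After scaling 5 were higher, with ITGA3, ITGAV and LAMB2 added. ITGA1 was 23.2-fold and LAMC1 4.89-fold higher. The stromal marker sum was 13.7 FPKM on day 3 and 694 in day 7 NKX2-5-, with 6 of 7 genes higher, and the liver and visceral endoderm sum was 1.66 and 177 FPKM, with 5 of 6 higher. Their part in the ITGA1 and LAMC1 differences was not tested. ITGA5 was 1.68-fold lower in this step, against 7.93-fold in the step to NKX2-5+. The day 7 comparisons share the day 3 library, and no difference between them was tested.

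The day 14 pair, both sorted as NKX2-5+, had 0 of 38 genes higher and 0 lower (0.282% and 0.152% of all genes), also after scaling. The widest log2 ratios were -0.73 for ITGA5 and 0.66 for LAMA4 (scaled -0.53 and 0.75). LAMA2 and LAMA4 were 2.10-fold and 2.17-fold higher in aMHC+, the fraction with the higher cardiomyocyte sum, at levels of 1.33 and 2.14 FPKM. ITGA7 was at 3.16 against 1.75 FPKM in the same direction. Stromal markers summed to 347 FPKM in aMHC+ and 720 in aMHC-.

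Between day 7 NKX2-5+ and day 14 aMHC+, ITGA3 and ITGAV were higher (2 of 38, 3.11% of all genes) and LAMA4 lower (1 of 38, 0.335% of all genes). After scaling none was higher and 2 were lower (LAMA4 and LAMA2). ITGAV was 6.85-fold higher (log2 ratio 2.49, scaled 1.98) and ITGA3 6.39-fold (2.03, scaled 1.63). LAMA4 was 7.55-fold lower (-2.45, scaled -3.01) and LAMA2 4.19-fold lower (-1.50, scaled -2.01). In the same step the stromal marker sum was 44.1 and then 347 FPKM, with 3 of 7 genes higher (2 after scaling). The epithelial sum was 89.1 and 988 FPKM, with KRT8 and KRT18 higher and no other of its 7 genes passing in either direction. KRT8 and KRT18 had 389 and 560 FPKM in day 14 aMHC+, most of that sum. EPCAM was at 3.69 and then 1.16 FPKM, CDH1 at 0.247 and 0.261, and CLDN6 at 25.4 and 37.6. The smooth muscle sum was 499 and 846 FPKM, with 4 of 6 higher (3 after scaling). The part of these markers in the member differences was not tested.

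The partners of laminins and integrins were read from 4 lists, and each gives its own count beside the shares of all genes above. Of 18 other integrin ligands, 0 passed in the day 3 pair, and in day 7 NKX2-5+ over NKX2-5- 1 was higher and 7 lower (5 after scaling). The higher one was VCAM1, and among the lower ones were SPP1 (osteopontin, 0.409 against 18.3 FPKM), COL1A1 (24.0 against 315), FBN1 (0.397 against 9.18) and COL1A2 (12.8 against 95.0). FN1, TNC and THBS1 (thrombospondin 1, 4.17 against 22.0 FPKM) were also among them. The list median was -1.90 (scaled -1.52) against -0.33 (scaled -0.04) for all genes. On day 14, 0 of 18 passed.

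Among 13 basement membrane partners of laminin, NTN4, a laminin-binding netrin, was higher in day 3 CD13+/ROR2+ than in CD13-/ROR2- (7.01 against 0.329 FPKM), and SMOC2 lower in day 7 NKX2-5+ than in NKX2-5- (0.148 against 8.53). No other partner passed in a within-day pair. From day 3 CD13+/ROR2+, 3 of 13 were higher in day 7 NKX2-5+ and 6 in NKX2-5-. NID2 (nidogen), which links laminin to collagen IV, was at 0.789 FPKM on day 3 and at 61.9 and 51.1 in the day 7 fractions.

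Of 13 other laminin receptors, 1 passed in the day 3 pair, BCAM, a receptor for laminins with LAMA5, at 0.826 FPKM in CD13+/ROR2+ against 11.3 in CD13-/ROR2-. LAMA5 itself was at 1.63 against 6.20 FPKM in those libraries. Dystroglycan (DAG1) was at 13.6 FPKM in hESC, 18.7 and 44.3 in day 3 CD13+/ROR2+ and CD13-/ROR2-, 27.0 and 29.6 on day 7 and 32.5 and 46.6 on day 14. It passed in no comparison.

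Inside the cell, 25 genes of the adhesion complex were read, among them talins, kindlins, ILK and its partners. On day 3 and day 14, 0 of 25 passed between fractions. In day 7 NKX2-5+ over NKX2-5-, 1 was higher and 3 lower (1 after scaling). The higher one was ITGB1BP2 (melusin), a muscle protein that binds the tail of the ITGB1 product, at 19.0 against 3.87 FPKM. It stood at 1.02 to 1.32 FPKM up to day 3 and at 24.9 and 11.7 in day 14 aMHC+ and aMHC-. The lower ones were FLNA (11.9 against 69.2 FPKM), TNS3 (1.5 against 10.1) and ACTN1 (10.2 against 47.3), which link integrins to actin.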

How the data were processed

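RNA of 7 libraries was sequenced as single reads from TruSeq RNA v2 libraries of cells that were sorted and then sorted again, per the labels' protocols; that kit does not mark strand, so overlapping genes cannot be separated. The authors deposited 1 table of FPKM values, 1 column per library, for 23368 gene symbols; 106 with blank cells were left out. Cufflinks and hg19 were used, per the submitters' processing notes; their versions, the aligner and the annotation are not stated in the labels. Across samples the labels number the NKX2 reporter differently, which was read as 1 line. The depth of each library is unknown, so no interval can be given; the relative depths come from the most frequent ratio of values below 0.3 FPKM, and the lowest FPKM values rest on few reads.

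Groups came from the sample labels, with 1 library each, and 8 comparisons were made. No test was run. Ratios are log2 of (FPKM + 1), which understates differences of low genes. Background shares are over 13137 genes with a mean of at least 0.5 FPKM (23 of the 38 members). Every member reaching 5 FPKM is given in full, other members by range (1 is not reported here), and of the partner lists FN1, VTN and genes passing in a within-day pair; a few further levels were chosen after their values were seen. Alternatives were pseudocounts of 0.1 and 5, no minimum FPKM, median-ratio scaling over 7780 genes, equal sums without small RNA and histone genes, leaving out genes listed at 0, and class shares without genes under 1 FPKM. Members, lists and rules were chosen with earlier results of these data known. The calling code (Python 3.11.15, pandas 2.3.3) was tested on simulated data.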

Additional observations from a re-analysis of the deposited data

How the results depend on the processing

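With 1 library per group, leaving out a library gives no value. No paired analysis was possible because no group has more than 1 sample. No called ratio of a member changed sign. Of 120 ratios (15 members in 8 comparisons), 10 changed sign after median-ratio scaling and 10 at equal sums, none of them called. The leading subunit or chain of each class was the same in all 35 class-by-library shares without genes under 1 FPKM. No count moved by over 1.5 times without a minimum FPKM or without genes listed at 0. In the day 3 pair, the integrins higher became 1 after median-ratio scaling and 1 with a pseudocount of 5, where the integrins lower became 0. In the day 7 pair, the integrins lower became 5 with a pseudocount of 0.1 and 1 with 5. The laminins higher there became 2 with 0.1, after median-ratio scaling and at equal sums, and 0 with a pseudocount of 5. From day 3 CD13+/ROR2+ to day 7 NKX2-5+, the laminins higher became 2 under the same 3 settings. From day 3 CD13+/ROR2+ to day 7 NKX2-5-, the integrins higher became 3 with 0.1, after scaling and at equal sums, and the laminins higher 3 with 0.1, 2 after scaling and 0 with 5. From day 7 NKX2-5+ to day 14 aMHC+, the integrins higher became 0 with 5, after scaling and at equal sums, and the laminins lower 0 with 5 and 2 after scaling and at equal sums. With a pseudocount of 0.1, list medians passed 1 in size for laminins in the day 7 pair (-1.34) and from day 3 CD13+/ROR2+ to day 7 NKX2-5- (1.19), and for integrins from day 7 NKX2-5+ to day 14 aMHC+ (1.04). A larger pseudocount lowers all ratios by construction; the cause of the other moves was not tested.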
